A study of Mus musculus with 10 samples.

Results

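Chondrocytes of the growth plate (GP) and of articular cartilage (AC) share collagen II and aggrecan but differ in many other transcripts, among them *Cnmd*, which encodes chondromodulin, a cartilage glycoprotein that keeps vessels out. The 5 genes *C1qtnf3*, *Fam180a*, *Fscn1*, *Gal3st1* and *Batf3* were followed here in single cells, out of the 29183 genes listed for both lineages of the study. They were chosen because earlier results of these data placed them among the transcripts of *Cnmd*-rich *Grem1*-lineage cells, so their higher level in those cells is a description and is given without a test. *C1qtnf3* encodes a secreted protein of the C1q and tumour necrosis factor related family that is known from cartilage, and *Fam180a* encodes a predicted secreted protein of little-known function. *Fscn1* encodes fascin, which bundles actin filaments in filopodia and is abundant in mature dendritic cells. *Gal3st1* encodes the cerebroside sulfotransferase, which makes the sulfated glycolipids of myelin and kidney. *Batf3* encodes a transcription factor that pairs with JUN proteins and is best known for the development of a class of dendritic cells.

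Cells were sorted into 96-well plates from hind limbs of C57BL/6 mice in which a Cre driver switches on TdTomato from the *Rosa* locus. *Grem1-TdT* mice carry the tamoxifen-inducible *Grem1-creERT*, which labels cells that express the BMP antagonist *Grem1* at the time of treatment and their progeny, and these mice ate tamoxifen chow for 2 weeks from 5 to 6 weeks of age. Their AC and GP were excised, and the labels do not say which tissue a plate holds. *Lepr-TdT* mice of paired age carry *Lepr-cre*, which is active in every cell that has ever expressed *Lepr*, and their cells came from whole bone after exclusion of CD45, Ter119 and CD31, so lineage cannot be told apart from tissue and sorting. The *Grem1* lineage had 8 plates (1, 2, 4, 5, 6, 7, 8 and 9), with 2 for the *Lepr* lineage. How many mice gave the cells of a plate is not stated, so a p-value measures the spread between plates, which may be technical.

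Transcripts were counted as unique molecular identifiers (UMIs), which count each captured molecule once. Of 768 *Grem1*-lineage wells, 684 had at least 350 detected genes and were kept. A cell was called *Cnmd*-rich where *Cnmd* made up at least 1% of its UMIs and exceeded the sum of *Clu*, *Cilp* and *1500015O10Rik*, 3 transcripts of articular chondrocytes. This held for 245 cells, 25 to 39 on each plate, with a median of 2304 UMIs per cell. The other 439 *Grem1*-lineage cells had a median of 1218 UMIs. The UMIs of each group were summed per plate, which gave 56535 to 95162 UMIs for *Cnmd*-rich cells and 51902 to 84888 for the other cells, and levels are given as CPM, the UMIs of a gene scaled to the summed UMIs of the group on that plate. Of 16 growth plate markers only 3 were listed for both lineages, because the *Grem1*-lineage counts stop partway through the alphabet. *Epyc*, a proteoglycan of growth plate cartilage that the grouping did not use, had 903 to 1706 CPM in *Cnmd*-rich cells and 12.9 to 169 CPM in the other cells, while *Col10a1*, the collagen of hypertrophic cartilage, was lower in *Cnmd*-rich cells on 8 of 8 plates. The cells are therefore called by the rule that selected them.

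All 5 genes are protein coding and none shares exon sequence with another gene in GENCODE vM21 on GRCm38. *C1qtnf3* lies on chr15:10952332-10980150 (plus strand), *Fam180a* on chr6:35312668-35326141 (minus strand), *Fscn1* on chr5:142960343-142973185 (plus strand), *Gal3st1* on chr11:3983636-3999326 (plus strand) and *Batf3* on chr1:191097847-191108945 (plus strand). The 250 bases before the RefSeq start (GRCm38.p6) are shown for the 4 genes in which this stretch lies wholly or nearly wholly before the GENCODE gene, to let the promoters of genes that were found together be compared. *Gal3st1* has 3 RefSeq windows, of which the first is printed. Capitals mark matches on either strand to the TATA box (TATAAA), the AP-1 site (TGANTCA), the CRE (TGACGTCA), the SOX cores (ACAAAG or, with another base, ACAATG), the RUNX core (TGTGGT), the GC box (GGGCGG) or the E-box (CACGTG).
C1qtnf3, chr15:10952082-10952331, plus strand: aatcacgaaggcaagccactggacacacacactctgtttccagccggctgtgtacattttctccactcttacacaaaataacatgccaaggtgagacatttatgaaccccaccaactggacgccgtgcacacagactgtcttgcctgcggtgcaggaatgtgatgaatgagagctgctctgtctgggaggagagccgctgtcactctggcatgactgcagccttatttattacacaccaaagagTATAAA
Fam180a, chr6:35326142-35326391, minus strand: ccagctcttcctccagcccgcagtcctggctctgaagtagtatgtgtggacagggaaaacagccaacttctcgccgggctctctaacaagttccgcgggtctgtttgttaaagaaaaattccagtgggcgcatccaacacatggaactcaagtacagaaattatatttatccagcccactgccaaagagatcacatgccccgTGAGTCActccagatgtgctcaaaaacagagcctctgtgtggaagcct
Fscn1, chr5:142960105-142960354, plus strand: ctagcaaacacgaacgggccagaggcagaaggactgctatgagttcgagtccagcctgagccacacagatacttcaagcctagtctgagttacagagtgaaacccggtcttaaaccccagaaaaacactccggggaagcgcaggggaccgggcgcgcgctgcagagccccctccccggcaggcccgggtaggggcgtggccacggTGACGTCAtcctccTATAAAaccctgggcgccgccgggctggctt
Gal3st1, chr11:3983386-3983635, plus strand: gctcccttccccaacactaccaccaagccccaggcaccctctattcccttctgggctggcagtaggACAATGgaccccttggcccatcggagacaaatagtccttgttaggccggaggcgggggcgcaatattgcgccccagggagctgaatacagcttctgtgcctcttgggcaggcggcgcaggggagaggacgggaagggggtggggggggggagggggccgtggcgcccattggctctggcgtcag

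*C1qtnf3* and *Fscn1* held the TATA letters, which 13.0% of 27025 mouse promoters of this length hold. These letters lay at bases -6 to -1 from the RefSeq start in *C1qtnf3* and at -31 to -26 in *Fscn1*. *Fscn1* also held the CRE letters, found in 1.62% of promoters, and *Fam180a* held an AP-1 match, found in 6.87%. *Gal3st1* held ACAATG, found in 11%. The *Batf3* stretch, which overlaps the GENCODE gene and is not printed, held 5 GC boxes and CACGTG, found in 32.9% and 6.05% of promoters. The bases were 49.2% G or C for *C1qtnf3*, 50.4% for *Fam180a*, 62.4% for *Fscn1*, 65.6% for *Gal3st1* and 76% for *Batf3*. None of the listed motifs was common to *C1qtnf3* and *Fam180a*, and a match to letters does not show that a factor binds there.

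All 5 genes had most of their *Grem1*-lineage UMIs in the *Cnmd*-rich cells, as their selection required. *C1qtnf3* had 1040 UMIs in *Cnmd*-rich cells and 79 in the others, with a lowest, median and highest plate of 527, 1331 and 4717 CPM against 15, 107 and 387 CPM. *Fam180a* had 382 and 41 UMIs, or 375, 542 and 1054 CPM against 0, 57.4 and 158 CPM. *Fscn1* had 360 and 41 UMIs, or 407, 618 and 680 CPM against 19.3, 60.6 and 143 CPM. For each of these 3 genes and for *Gal3st1*, every *Cnmd*-rich plate sum lay above every other plate sum, which was so for 10.1% of the 1047 genes tested between the groups. *Gal3st1* had 54 UMIs against 4, with 39.7, 92.0 and 139 CPM in *Cnmd*-rich cells and at most 26.0 CPM in the others. *Batf3* had 74 UMIs against 12, with 13.2, 96.6 and 255 CPM against 0, 12.2 and 65.1 CPM, so its ranges overlapped and it was higher in *Cnmd*-rich cells on 7 of 8 plates. The fitted log2 difference was 3.42 (SE 0.24) for *C1qtnf3*, 2.84 (SE 0.27) for *Fam180a* and 2.71 (SE 0.25) for *Fscn1*. These were the 3 of the 5 genes that passed the filter on low counts. In that fit 47.5% of all genes tested differed, 22.9% higher and 24.5% lower in *Cnmd*-rich cells, and 5.25% had every *Cnmd*-rich sum below every other sum.

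**Figure D1:**
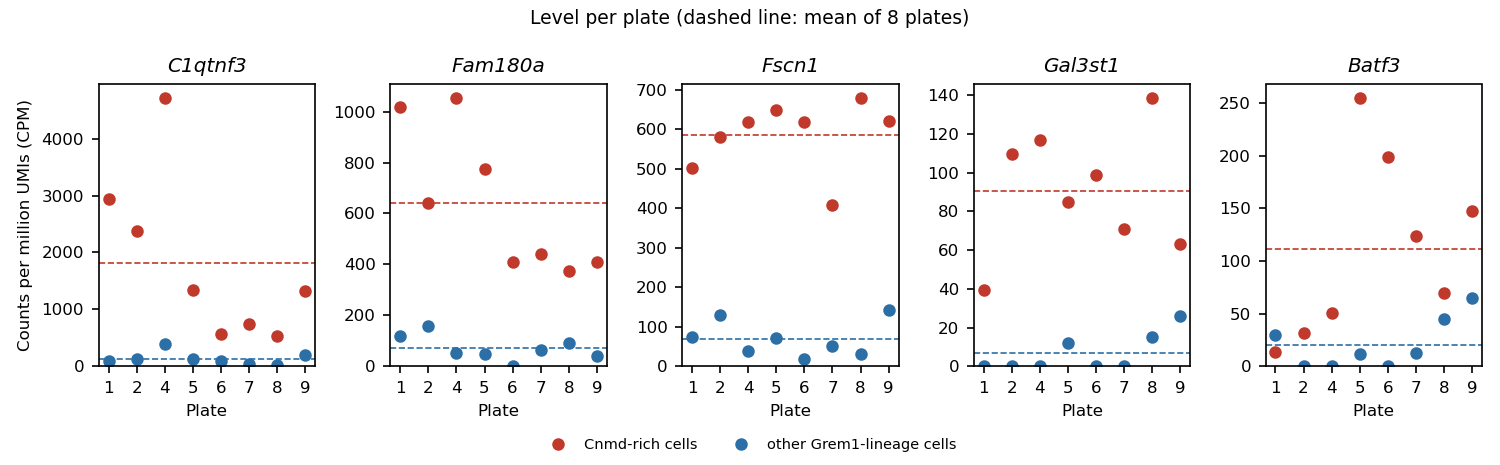
Level of each gene (CPM, linear axis from 0) in the summed *Cnmd*-rich (red) and other *Grem1*-lineage (blue) cells of each of 8 plates, with the mean of the 8 plates as a dashed line. *C1qtnf3* was highest on plates 1, 2 and 4, *Batf3* was lowest on the same plates, and *Fscn1* stayed between 407 and 680 CPM.

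*C1qtnf3* had the largest variance between plates relative to counting, and *Batf3* the largest ratio of highest to lowest plate (19.3, against 8.95 for *C1qtnf3*). In *Cnmd*-rich cells it had 2947, 2380 and 4717 CPM on plates 1, 2 and 4, and 1338, 562, 743, 527 and 1324 CPM on plates 5, 6, 7, 8 and 9, so no plate of the first 3 overlapped the rest. The variance of its UMIs between plates was 82.3 times that of counting alone, against a median of 5.00 times for 49 genes with similar UMI totals. *Fam180a* had 1018, 642 and 1054 CPM on plates 1, 2 and 4 and 775 CPM on plate 5, and the remaining 4 plates had 375 to 442 CPM. Its variance was 9.07 times counting, against 2.79 for 225 similar genes.

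*Batf3* had the opposite order. It had 13.2, 31.3 and 50.2 CPM on plates 1, 2 and 4, from 1, 2 and 3 UMIs, and 255, 198, 124, 69.4 and 147 CPM on plates 5 to 9, from 5 to 24 UMIs. Its variance was 4.90 times counting (1.49 for 894 similar genes). *Fscn1* and *Gal3st1* varied between plates no more than counting, at 0.864 and 0.854 times, where genes with similar totals had medians of 2.77 and 1.48. The order of *C1qtnf3* was also seen in shares of cells with a UMI after each cell was thinned to 1351 UMIs, with 59.8% to 83.1% on plates 1, 2 and 4 and 36.9% to 56.3% on plates 5 to 9. No label groups the plates, so these differences were not tested. *Col10a1* varied between the same sums by 49.5 times counting, and whether tissue or animals differed between plates was not tested.

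Within *Cnmd*-rich cells at the deposited depth, *C1qtnf3* had a UMI in 149 of 245 cells (60.8%, 95% Clopper-Pearson interval 54.4% to 67.0%), *Fam180a* in 151 (61.6%), *Fscn1* in 145 (59.2%), *Gal3st1* in 44 (18%) and *Batf3* in 41 (16.7%). Such intervals cover counting error only. In the other *Grem1*-lineage cells the shares were 15.9%, 6.38%, 8.66%, 0.911% and 2.51%, at a median of 1218 UMIs per cell against 2304. *C1qtnf3*, *Fam180a*, *Gal3st1* and *Batf3* had no UMI in 160 *Lepr*-lineage cells, which by the limit of 3 counts allows a share of cells with a UMI of up to 1.88% for each. At a median of 505 UMIs per cell this is no limit on the share of cells that express them. At 1351 UMIs per cell the variance of *C1qtnf3* among cells was 6.41 times its mean, the highest ratio of the 5, against a median of 1.48 for 50 genes of similar mean. The same ratio was 1.66 for *Fam180a*, 1.53 for *Fscn1*, 1.11 for *Gal3st1* and 1.68 for *Batf3*, against 1.18, 1.16, 1.09 and 1.09 for similar genes. The 24 cells with the most UMIs of a gene held 51.6% of the deposited UMIs for *C1qtnf3*, 38.7% for *Fam180a*, 38.6% for *Fscn1*, 63.0% for *Gal3st1* and 77.0% for *Batf3*. These ratios and shares pool the cells of all plates, so differences between plates enter them. In a single cell *C1qtnf3* reached 40 UMIs and *Batf3* 9.

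**Figure D2:**
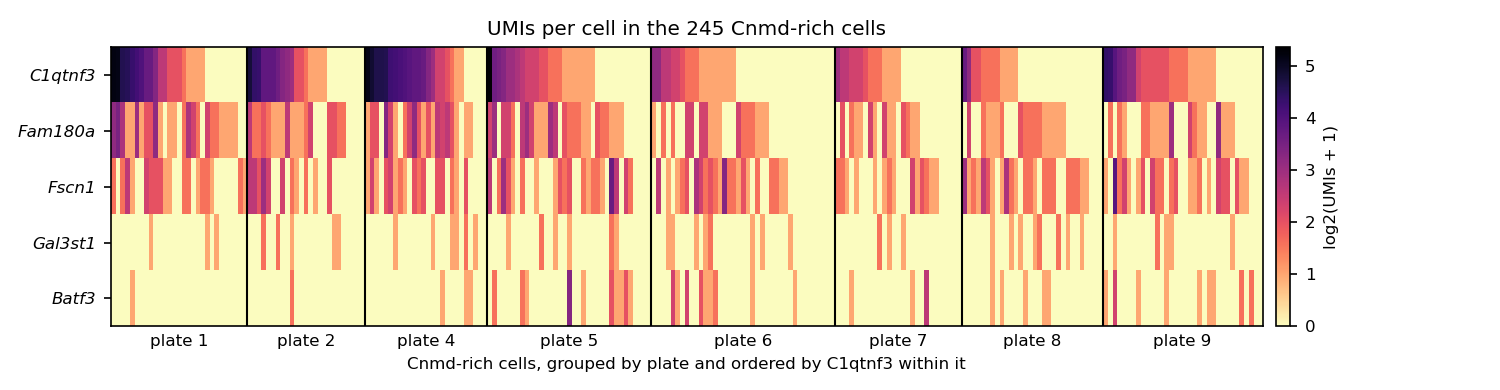
UMIs of each gene, as log2(UMIs + 1), in the 245 *Cnmd*-rich cells (columns), grouped by plate and ordered by *C1qtnf3* within a plate. Of these cells 28 had no UMI of any of the 5 genes and 5 cells had all 5, and the darkest *C1qtnf3* cells were on plates 1, 2, 4, 5 and 9.

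Most *Cnmd*-rich cells held some but not all of the 5 genes. Of the 245 *Cnmd*-rich cells, 28 had none of the 5, 38 had 1, 80 had 2, 69 had 3, 25 had 4 and 5 had all, and their median depth rose from 1601 UMIs with none to 3799 with all 5. Since deeper cells show more transcripts, joint detection was tested in 220 cells thinned to 1351 UMIs, as a log odds ratio (natural log) on each plate. An exact two-sided sign-flip permutation test over 8 plates, whose smallest possible p is 0.0078, was adjusted over the 10 pairs.

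*C1qtnf3* and *Fam180a* were found in the same cell more often than independent genes would be. Their mean log odds ratio was 0.54 ± 0.24 (SD, n = 8 plates, range 0.20 to 0.86, above 0 on 8 of 8 plates, exact permutation p = 0.0078, adjusted p = 0.026). Over all plates together, *Fam180a* was found in 55.9% of cells with *C1qtnf3* and in 38.5% of cells without it. At the deposited depth 107 cells had both, 42 had *C1qtnf3* alone, 44 had *Fam180a* alone and 52 had neither. Since each plate gave its own value, the higher level of both genes on plates 1, 2 and 4 does not enter the test. It does enter these shares and counts of cells, which pool the plates. Both genes were chosen for their level in *Cnmd*-rich cells, and the test did not hold the *Cnmd* share of a cell constant. Pooled over plates, *C1qtnf3* had a UMI in 64.0% of cells with a *Cnmd* share between 2% and 3%, and in 75.3% above. For *Fam180a* these values were 57.9% and 80.5%. Whether the 2 genes were found together beyond this common rise with *Cnmd* share was not tested. *Fscn1* and *Batf3* also lay above independence, with 0.43 ± 0.35 (range 0.036 to 1.11, above 0 on 8 of 8 plates, exact permutation p = 0.0078, adjusted p = 0.026). Over all plates together, *Batf3* was found in 14.5% of cells with *Fscn1* and in 10.5% of cells without it. At the deposited depth 30 cells had both, 115 had *Fscn1* alone, 11 had *Batf3* alone and 89 had neither. On plates 1, 2 and 4 *Batf3* had a UMI in only 1, 1 and 3 *Cnmd*-rich cells before thinning. The sign on these plates, which the p of 0.0078 needs, therefore rests on very few cells. With *Cnmd* at 2% or more of UMIs the values were 0.57 and 0.46, and both pairs missed the threshold (adjusted p = 0.052 and 0.18, exact permutation test). With no minimum of genes per cell *C1qtnf3* with *Fam180a* passed at 0.53 (adjusted p = 0.039, exact permutation test), and *Fscn1* with *Batf3* did not at 0.56 (adjusted p = 0.052, exact permutation test). Without any 1 plate the values were 0.50 to 0.59 and 0.34 to 0.49, and 7 plates allow no p below 0.016, too large for a call after adjustment here.

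*Gal3st1* and *Batf3* had a log odds ratio of 1.03 ± 0.65 on the 8 plates (adjusted p = 0.026, exact test), but this call did not hold. With the 0.5 added to each count, genes this rare give 0.78 on average when they are independent. After subtraction of that value the difference was 0.25 ± 0.48, above 0 on 5 of 8 plates (adjusted p = 0.49, exact permutation test), while *C1qtnf3* with *Fam180a* and *Fscn1* with *Batf3* kept 0.54 and 0.39 (both adjusted p = 0.039, exact permutation test). The other 7 pairs did not pass. Their means ran from -0.55 ± 1.16 for *C1qtnf3* with *Batf3* to 0.46 ± 0.62 for *C1qtnf3* with *Fscn1*, and the SD over plates exceeded the mean for each of them. *C1qtnf3* with *Fscn1* and *Fam180a* with *Gal3st1* passed at the deposited depth, at 1.16 and 0.97 (both adjusted p = 0.026, exact permutation test). They also passed there within 2 strata of depth, at 0.95 and 0.59 (both adjusted p = 0.031, exact permutation test), and did not pass in thinned cells.

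**Figure D3:**
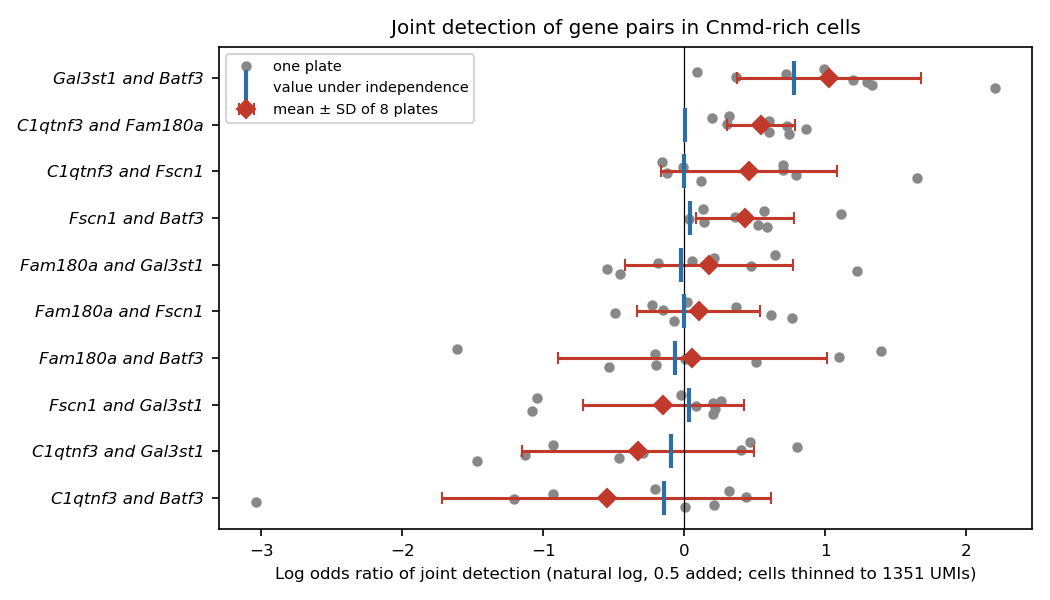
Log odds ratio of joint detection (natural log, 0.5 added) for the 10 gene pairs in *Cnmd*-rich cells thinned to 1351 UMIs, with 1 grey point per plate, the mean ± SD of 8 plates in red and the mean expected for independent genes in blue. *C1qtnf3* with *Fam180a* and *Fscn1* with *Batf3* lay above 0 on every plate, and *Gal3st1* with *Batf3* lay near its blue mark of 0.78.

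*Cnmd*-rich cells were next divided by whether they held a *C1qtnf3* UMI. Of 553 genes tested, 16 passed an adjusted p of 0.05 (2.89%) and all 16 were lower in the 149 cells with *C1qtnf3* than in the 96 without (edgeR quasi-likelihood test with the plate as block). Their median depths were 2391 and 1983 UMIs. The genes named by the rule were *Cst3*, *Enpp1* and *Crispld1*. *Cst3*, which encodes cystatin C, an inhibitor of cysteine proteases, had 7734 ± 2337 CPM with and 15856 ± 3589 CPM without *C1qtnf3* (SD, 8 plates, lower on 8 of 8, log2 -1.10, SE 0.14, edgeR adjusted p = 0.00013). *Enpp1*, whose product makes pyrophosphate, an inhibitor of mineral, had 214 ± 71.8 CPM against 448 ± 205 CPM (log2 -1.08, edgeR adjusted p = 0.013). *Crispld1*, which encodes a secreted cysteine-rich protein, had 493 ± 155 CPM against 936 ± 358 CPM (log2 -0.86, edgeR adjusted p = 0.011). In the contrast of *Cnmd*-rich with other *Grem1*-lineage cells, on which *C1qtnf3* was chosen, *F3* was not tested. Most of the other genes among the 16 were also lower there, where the median log2 over all genes tested was 0.0028. The lower values ran from log2 -2.93 for *Cytl1* to -0.19 for *Col6a2*, with -1.98 for *Cst3*. Higher there were *Cdkn1c* (log2 1.61), *Alpl* (0.88), *Col6a1* (0.17) and *Fn1* (0.15). Whether the split by *C1qtnf3* repeats that contrast was not tested.

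Among the lists of growth plate zones, 0 of the 10 columnar genes tested passed in either direction by edgeR. Their log2 value was above 0 for 9 and below 0 for 1, with a median of 0.18 against -0.0048 over all genes tested. *Epyc* had log2 0.32 (adjusted p = 0.47) and *Col9a1* 0.15 (adjusted p = 0.73). Of the 3 resting zone genes tested, *Cd200*, a surface glycoprotein, was lower (log2 -1.89, SE 0.33, edgeR adjusted p = 0.0021, on 7 of 8 plates). Of the 3 prehypertrophic and hypertrophic genes tested, *Alpl*, the alkaline phosphatase of mineralising cells, and *Cdkn1c*, a cell cycle inhibitor, were lower (log2 -1.29 and -0.99, edgeR adjusted p = 0.013 and 0.0021). *Col10a1* had log2 -1.22 with an SE of 0.60 (adjusted p = 0.45). The remaining 10 calls, given here after their values were seen, include the matrix or secreted products *Chad*, *Cytl1*, *Fn1*, *Col6a1*, *Col6a2* and *Chil1*, while of the 10 chondrocyte markers tested only *Cytl1* passed. Among the other members *Fam180a* had 718 ± 321 CPM with and 407 ± 139 CPM without *C1qtnf3* (log2 0.64, SE 0.21, adjusted p = 0.12). *Fscn1* had log2 0.49 (SE 0.26, adjusted p = 0.47).

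The count differed between settings. DESeq2 gave 17 calls, of which 15 were among the 16. Without the plate as block 2 passed, *Cd200* and *Cst3*. Leaving out 1 plate gave 10 to 21 calls. The settings that follow also changed the cells or plates compared. A single random thinning to 1351 UMIs left 123 cells with and 97 without *C1qtnf3* and a fit over 7 plates. In that fit 6 genes passed, of which 5 were among the 16 (*Alpl*, *Chad*, *Col6a1*, *Cst3* and *Cytl1*). Without plate 5 there were 10, and with *Cnmd* at 2% or more of UMIs, on 6 plates, none passed.

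**Figure D4:**
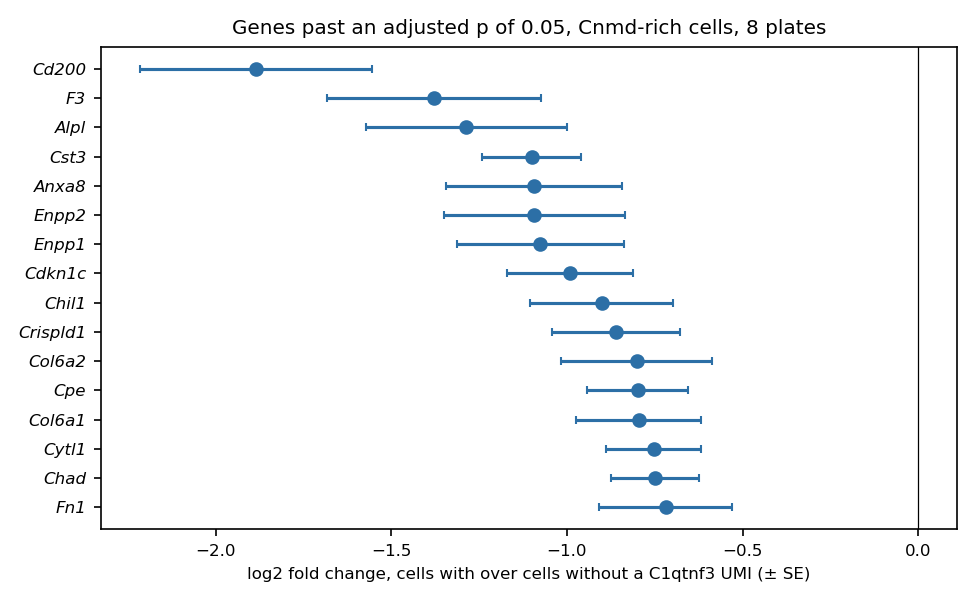
The log2 fold change (with its SE as a bar) of the 16 genes past an adjusted p of 0.05 between *Cnmd*-rich cells with and without a *C1qtnf3* UMI, over 8 plates. All lie below 0, from -1.89 for *Cd200* to -0.72 for *Fn1*.

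For the other members the split left few or no calls. With and without *Fam180a*, 0 of 580 genes passed by edgeR (0%), 1 by DESeq2, and 38 had an unadjusted p under 0.05. *C1qtnf3* had 1950 ± 1593 CPM in the 151 cells with *Fam180a* and 1179 ± 1194 CPM in the 94 cells without (log2 0.56, SE 0.30, adjusted p = 0.77 by edgeR). Leaving out plate 1 or plate 2 gave 1 call each.

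With and without *Fscn1*, 3 of 522 genes passed (0.575%), all lower in cells with it on 8 of 8 plates. They were *Cpm*, a membrane carboxypeptidase (231 ± 172 CPM against 606 ± 518 CPM, log2 -1.37, edgeR adjusted p = 0.0082), *Apoe*, the lipid carrier (1185 ± 575 CPM against 2473 ± 819 CPM, log2 -1.19, edgeR adjusted p = 0.018), and *Cst3* (log2 -0.83, edgeR adjusted p = 0.012). The median depths were 2503 and 2016.5 UMIs, and none passed in thinned cells. Without plate 2 none passed, without plate 7 there was 1 and without plate 9 there were 5. Of the actin bundling list, 21 genes were listed, 4 were tested and none passed.

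*Gal3st1* could be split on 6 plates and *Batf3* on 4 plates, since the others had fewer than 5 cells with the gene. For *Gal3st1* 0 of 515 genes passed by edgeR (0%) and 0 by DESeq2, with 27 at an unadjusted p under 0.05, and leaving out plate 2 gave 1. *C1qtnf3* had 1165 ± 854 CPM in cells with *Gal3st1* and 1987 ± 1793 CPM in cells without (lower on 5 of 6 plates, log2 -0.66, SE 0.25, edgeR adjusted p = 0.87). For *Batf3* 2 of 687 genes passed (0.291%), *Ctcfl*, a relative of the insulator protein CTCF, and *Capza2*, an actin capping subunit, both lower with *Batf3* (log2 -3.52 and -2.82, edgeR adjusted p = 6.6e-06 and 0.011, on 4 of 4 plates). These counts lie in few cells, since 5 of the 245 *Cnmd*-rich cells held 82.3% of *Ctcfl* UMIs and 62.5% of *Capza2* UMIs. The count for *Batf3* was 1 without plate 5 or plate 8, and 5 without plate 9. None of the 4 AP-1 and BATF partner genes tested passed in these splits, nor did the 1 sulfoglycolipid gene tested.

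The cells of each plate were also divided at the median *Cnmd* share. Since *Cnmd* chose the cells and the members, the members' values in this division are a description. *C1qtnf3* had a lowest, median and highest plate of 665, 1915 and 6267 CPM in the 120 cells above the median and 179, 826 and 3156 CPM in the 125 cells below it. It was higher above the median on 7 of 8 plates, with overlapping ranges (log2 1.39, SE 0.21). Of 550 genes tested, 1 passed as higher in these cells (0.182%). It was *C1qtnf3*, whose choice favoured this result, so the call adds no support. *Fam180a* had log2 0.44 (SE 0.24) and *Fscn1* 0.32 (SE 0.19), each higher on 6 of 8 plates. *Gal3st1* had 30 UMIs above and 24 below the median, and *Batf3* 39 and 35, too few to be fitted. A further 10 genes (1.82%) were lower in the cells above the median. Those lower on every plate were *Fn1*, which encodes fibronectin (4813 ± 2201 CPM against 9896 ± 3654 CPM, log2 -1.14, edgeR adjusted p = 9.2e-06), *Col6a2* (log2 -0.71, edgeR adjusted p = 0.027) and *Col6a1* (log2 -0.61, edgeR adjusted p = 0.012), subunits of collagen VI. *Alpl* (log2 -1.46) and *Cd200* (log2 -1.17) were lower by more, on 6 and 7 of 8 plates. This division and that by *C1qtnf3* share cells, and 7 genes passed in both, 43.8% of the 16 and 63.6% of the 11. The count of 11 fell to between 3 and 7 without plate 1, 2, 5, 6, 7 or 8. The log2 value of *C1qtnf3* was 0.76 with *Cnmd* at 2% or more of UMIs and 1.37 without the plate as block.

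**Figure D5:**
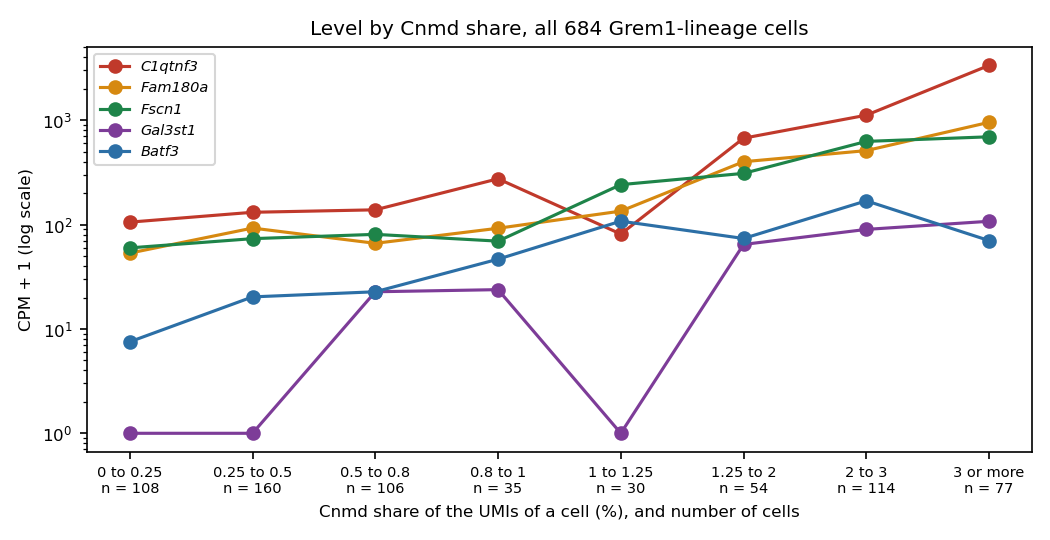
Level of each gene (CPM + 1, log axis) in all 684 *Grem1*-lineage cells, pooled over plates by the *Cnmd* share of the UMIs of a cell, with the number of cells under each bin. *C1qtnf3* had 104 CPM in the lowest bin and 3349 CPM in cells with a share of 3% or more, while *Batf3* peaked at 168 CPM between 2% and 3%.

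Levels were also taken over all *Grem1*-lineage cells by *Cnmd* share, pooled over plates that differ in these genes, as a description. The 30 cells nearest above a share of 1% held only 3 UMIs of *C1qtnf3*, 5 of *Fam180a*, 9 of *Fscn1*, 0 of *Gal3st1* and 4 of *Batf3*. *C1qtnf3* had 274 CPM in the 35 cells just below 1%. It had 80.1 CPM in the 30 cells nearest above, 671 CPM in the further 54 cells up to 2%, 1116 CPM between 2% and 3%, and 3349 CPM above. *Fam180a* had 134, 399, 510 and 953 CPM in the same bins, and *Fscn1* 240.3, 308, 625 and 692 CPM. *Gal3st1* had 0, 63.5, 88.9 and 107 CPM. *Batf3* had 107, 72.5, 168 and 69.2 CPM, with no steady rise. Of the 30 cells at the limit, 10 passed the rule, and these just inside it had 1 UMI of *C1qtnf3*, 4 of *Fam180a*, 7 of *Fscn1*, 0 of *Gal3st1* and 2 of *Batf3*. The 35 cells just outside it, at 0.8 to 1% *Cnmd*, had 12, 4, 3, 1 and 2 UMIs.

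The cells were last divided by *Col10a1*. Between the 136 *Cnmd*-rich cells with and the 109 without a *Col10a1* UMI, 0 of 537 genes passed by edgeR (0%) and 0 by DESeq2, with 29 at an unadjusted p under 0.05. *C1qtnf3* had log2 0.23 (SE 0.17), *Fam180a* -0.049 (SE 0.19) and *Fscn1* 0.43 (SE 0.19, unadjusted p = 0.038, adjusted p = 0.80 by edgeR), and the other 2 members had too few UMIs to be tested. In these cells *Gal3st1* had 24 UMIs with and 30 without *Col10a1*, and *Batf3* 45 and 29.

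Against *Lepr*-lineage cells only *C1qtnf3* could be tested, in the 439 other *Grem1*-lineage cells. It had 0 UMIs on both *Lepr*-lineage plates and 15 to 387 CPM on the *Grem1*-lineage plates. Its pooled level of 138 CPM was at least 5.70-fold higher than the 24.1 CPM of a floor of 3 UMIs over both *Lepr*-lineage plates. That fold was not tested. *C1qtnf3* passed the filter on low counts through its *Grem1*-lineage sums alone, which fixed the direction of the test beforehand. Its call (edgeR adjusted p = 0.00997) therefore adds no support. In this comparison 36.3% of 1709 genes differed and 20% were lower in *Lepr*-lineage cells. The call was lost without *Lepr*-lineage plate 1 (adjusted p = 0.057) or plate 2 (adjusted p = 0.068), where the lone plate is assumed to vary like the *Grem1*-lineage plates. *Fam180a*, also without a UMI in *Lepr*-lineage cells, was at least 2.96-fold higher. *Gal3st1* and *Batf3*, without a UMI there too, had pooled levels of 6.97 and 20.9 CPM in the other *Grem1*-lineage cells. These lie under the *Lepr*-lineage floor of 24.1 CPM, so no fold was given. *Fscn1* was the 1 member with UMIs in *Lepr*-lineage cells, with 93.3 and 66.7 CPM on plates 1 and 2 from 10 UMIs, within the 19.3 to 143 CPM of the other *Grem1*-lineage cells. Only 40.9% of the UMIs of *Lepr*-lineage cells fell in the shared genes, to which their levels are scaled. With a median of 505 UMIs per cell on 2 plates, a low level in that lineage was less well resolved.

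As *Fscn1* and *Batf3* are known from dendritic cells, markers of these and other leukocytes were counted. Of 18 dendritic cell markers 8 were listed, and their sum was 33.0 to 1903 CPM over plates in *Cnmd*-rich cells and 19.3 to 2662 CPM in the other cells. Of 14 leukocyte markers 7 were listed, with sums of 0 to 2524 and 0 to 4194 CPM. *Cd74* had 247 UMIs in 20 *Cnmd*-rich cells and *Elane* 185 UMIs in 16, whereas *Clec9a* had 1 UMI and *Ccl22* and *Cd3e* had none. *Cd83* had 19 UMIs in 10 *Cnmd*-rich cells and 8 UMIs in 6 other cells. *Cadm1* had 19 UMIs in 13 *Cnmd*-rich cells and 53 UMIs in 32 other cells. *Ccr7*, *Flt3* and *Ccl17* had 3, 2 and 1 UMIs in *Cnmd*-rich cells. In the 175 *Cnmd*-rich cells without any of these markers *Batf3* had 117 CPM and *Fscn1* 637 CPM, against 132 and 493 CPM in the 70 cells with one. *Gal3st1* had 95.4 and 74.2 CPM. In the cells without these markers the split by *C1qtnf3* gave 4 calls and those by *Fscn1* and *Batf3* gave 0, and *C1qtnf3* above the median *Cnmd* share had log2 1.30. The single myelin gene listed, *Cnp*, had 0 to 137 CPM in *Cnmd*-rich cells and 25.8 to 101 CPM in the other cells.

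The genes most like each member were taken from 18 sums, 8 of *Cnmd*-rich, 8 of other *Grem1*-lineage and 2 of *Lepr*-lineage cells, by Pearson's r of log2(CPM + 1) over 2615 genes. The contrast that chose the members is part of these sums, which share plates, so r is a description. *C1qtnf3* was most like *Epyc* (0.93), the long noncoding *Gas5* (0.92) and *Col9a1* (0.92). *Fam180a* was most like *Bpifb1* (0.93), *Cyr61* (0.92) and *Crtap* (0.90), and *Fscn1* was most like *Col12a1* (0.93), *Gm37788* (0.90) and *Gm16238* (0.89). *Gal3st1* was most like *Gm10269*, *Fkbp3* and *Gm3511* (0.92, 0.91 and 0.88), and *Batf3* was most like *Cpa6*, *Dnajb1* and *Gm2830* (0.90, 0.81 and 0.77). Within the 8 *Cnmd*-rich sums alone, in the same order, r was 0.86, 0.077 and 0.10 for *C1qtnf3*, 0.22, 0.46 and 0.15 for *Fam180a*, and 0.067, -0.16 and -0.37 for *Fscn1*. It was 0.67, 0.23 and -0.20 for *Gal3st1*, and 0.78, 0.84 and 0.70 for *Batf3*, so the likeness of many of these genes lay in the contrast of *Cnmd*-rich with other cells. Among the members the highest r over 18 sums was that of *C1qtnf3* with *Fam180a* (0.85) and the lowest that of *C1qtnf3* with *Batf3* (0.59), which were 0.89 and -0.61 in the *Cnmd*-rich sums.

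The relatives of each member gave little. Of 19 listed genes of the C1q and tumour necrosis factor related family none passed the filter between *Cnmd*-rich and other cells, and their summed level was 138 to 318 CPM against 164 to 400 CPM. Of 21 listed actin bundling genes 5 were tested there, with *Actn1* higher and *Actn4* lower. Of 11 listed sulfoglycolipid genes 2 were tested and both, *Cers2* and *Degs1*, were lower. Of 9 listed AP-1 and BATF partner genes 4 were tested, with *Fosb* (log2 0.97, edgeR adjusted p = 0.0038) and *Atf3* (log2 0.65, edgeR adjusted p = 0.014) higher, in a fit where 22.9% of genes were higher and 24.5% lower.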

How the data were processed

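UMI counts per gene and cell were analysed for 8 *Grem1*-lineage and 2 *Lepr*-lineage plates. The authors deposited whole-number counts without normalisation, and the submitters' notes name UMI-tools, STAR, featureCounts, SAMtools, Seurat and mm10, with no versions. The 29183 complete rows of the *Grem1*-lineage file were used, and 1 incomplete row, its last, was left out. The file is in alphabetical order and stops among names that start with Gm. Later genes, such as *Ihh* and *Ptprc*, were therefore not analysed in that lineage. For *Grem1*-lineage cells, UMI totals, detected genes and the *Cnmd* share cover only these rows. A count column was assigned to a plate by the lineage and plate number in its name. The 96 well barcodes are used on more than 1 plate, so a cell is named by plate and barcode.

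Counts were summed per plate and group (at least 5 cells for a split within the *Cnmd*-rich cells, otherwise at least 10) and tested with edgeR 4.0.16 in R 4.3.3 (TMM, filterByExpr, quasi-likelihood test, Benjamini-Hochberg adjustment at 0.05). The plate was a block where both sums came from 1 plate. Same-numbered sums of *Cnmd*-rich and other cells deviated together (correlation 0.22 to 0.48 on 8 of 8 plates, over genes). SE is the log2 fold change over the root of F. CPM printed are of the summed counts. Joint detection used the mean of 20 seeded thinnings in Python 3.11.15 with scipy 1.17.1. Splits of thinned cells used only the first of these thinnings, so their counts of calls come from a single draw. A doublet caller was not run. Scripts were tested on simulated data.

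The genes and lists were chosen with earlier results of these data known. Named in the text are the 5 genes, those that define the groups, genes of the lists, the 3 genes with the largest fold change in each direction of a split (adjusted p under 0.05, mean of at least 50 CPM, same direction on every plate), and the 3 most like each member. Chosen after their values were seen were *Chad*, *Fn1*, *Col6a1*, *Col6a2* and *Chil1* in the split by *C1qtnf3*. Alternatives were DESeq2 1.42.0, its size factors, no filter, no block, thinning, other *Cnmd* limits, no gene minimum and each plate left out. Chosen later, with the data in view, were the subtraction of the value under independence, the removal of cells with a dendritic cell or leukocyte marker, and plates 1 and 2 without the block.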

Additional observations from a re-analysis of the deposited data

Results flagged for a closer look

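Of 20 sets of 8 plate values examined, 1 held an outlier, which is about the 1 in 20 that chance gives. The joint detection of *C1qtnf3* and *Batf3* had a log odds ratio of -3.04 on plate 4, at a distance from the nearest plate of 0.527 of the whole range. Wells with fewer than 350 detected genes, left out of all comparisons, also held UMIs of 3 members above the floor of 3 counts, namely 11 of *C1qtnf3*, 4 of *Fam180a* and 9 of *Fscn1* in 84 wells.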

How the results depend on the processing

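The direction of *C1qtnf3*, *Fam180a* and *Fscn1* between *Cnmd*-rich and other cells was kept under every alternative run. Counts of calls within *Cnmd*-rich cells were not stable, and the cause was not tested. In the order *C1qtnf3*, *Fam180a*, *Fscn1*, *Gal3st1*, *Batf3* and the split by *Cnmd* share, the counts of 16, 0, 3, 0, 2 and 11 became 2, 0, 0, 0, 1 and 0 without the plate block, where same-plate sums are parts of 1 library. With *Cnmd* at 2% or more of UMIs they became 0, 1, 1, 0, 1 and 0. Thinned cells gave 6, 0, 0, 1 and 2 calls for *C1qtnf3*, *Fam180a*, *Fscn1*, *Batf3* and the *Cnmd* share, and *Gal3st1* had too few cells to be split. Without a filter on low counts *Fam180a* had 2 calls, *Fscn1* 19, *Gal3st1* 23, *Batf3* 10, *Cnmd* share 23 and *Col10a1* 6, and DESeq2 gave *Fam180a* 1. Without cells with a dendritic cell or leukocyte marker, the counts were 4, 1, 0, 2, 0 and 6. Leaving out 1 plate gave 10 to 21 calls for *C1qtnf3*, 0 to 1 for *Fam180a*, 0 to 5 for *Fscn1*, 0 to 1 for *Gal3st1*, 1 to 5 for *Batf3* and 3 to 15 for the *Cnmd* share. Joint detection had 3 calls, 0 with *Cnmd* at 2% or more and 5 with 2 depth strata. Its 0 calls without any 1 plate follow from the smallest p that 7 plates allow and say nothing about stability.

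For the *Lepr*-lineage comparison 621 genes passed, and 369 to 606 without 1 plate. With plates 1 and 2 alone there were 347 calls with the replicate block and 381 without it. Plate numbers of the 2 lineages share only a number (correlation 0.067), so no pairing was used there.

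Values that changed sign were all of results that did not pass. With *Cnmd* at 2% or more, the log odds ratio of *Fam180a* with *Gal3st1* was -0.14, and the log2 value of *C1qtnf3* by *Fam180a* -0.00042, of *Fam180a* by *Gal3st1* -0.46, of *Fscn1* by *Fam180a* -0.24 and of *Fscn1* by *Cnmd* share -0.031. Without the filter, *Fam180a* had -0.24 by *Batf3*, 0.10 by *Col10a1*, 0.19 by *Fscn1* and -0.37 by *Gal3st1*, and *Fscn1* -0.13 by *Gal3st1*. In thinned cells *C1qtnf3* had -0.032 by *Col10a1* and *Fam180a* 0.082 by *Fscn1*, and without the block *Fam180a* had -0.063 by *Gal3st1*. Without marked immune cells, *C1qtnf3* and *Fscn1* by *Fam180a* had -0.088 and -0.17, and *Fam180a* by *Col10a1* 0.044. Leaving out 1 plate gave -0.13 to 0.30 for the log odds ratio of *Fam180a* with *Batf3*, -0.87 to 0.078 for *C1qtnf3* by *Batf3*, -0.10 to 0.23 for *Fscn1* by *Fam180a*, and for *Fam180a* -0.38 to 0.57 by *Batf3*, -0.17 to 0.14 by *Col10a1*, -0.20 to 0.063 by *Fscn1* and -0.12 to 0.17 by *Gal3st1*. With 54 and 74 UMIs, *Gal3st1* and *Batf3* are the least precise of the 5.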
